A study of Mus musculus with 4 samples.

Results

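Heterotrimeric G protein subunits and the RGS proteins that switch them off were followed in the dentate gyrus, the hippocampal subfield whose principal neurons are granule cells. The members were all probe sets annotated with a single gene symbol of the G alpha (Gna), G beta (Gnb), G gamma (Gng) or Rgs (regulator of G protein signalling) names, which gave 63 probe sets of 40 genes, among 10833 probe sets of 8251 genes with a single symbol. They comprised 14 G alpha genes, 5 G beta genes, 7 G gamma genes, 13 Rgs genes and Gnasas1, a transcript antisense to Gnas that encodes no G protein subunit. The samples were 4 arrays of dentate gyrus total RNA from young male C57BL/6J mice that had been handled and otherwise left untreated. RNA was taken at 1, 2, 4 or 6 h on the clock of a parallel experiment with shocked mice, with 1 array per hour and no replicate at any hour; the shocked mice were not analysed here. How many mice gave each sample is not given in the sources used here.

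A heterotrimeric G protein carries the signal of a seven-helix receptor. The activated receptor makes the alpha subunit exchange GDP for GTP, alpha parts from the beta-gamma dimer, and both act on effectors until alpha hydrolyses its GTP. Alpha subunits of the Gs class stimulate adenylyl cyclase, those of the Gi class inhibit it and Gq subunits activate phospholipase C beta, while the G12 subunits form a class of their own. RGS proteins speed up GTP hydrolysis, mostly on Gi and Gq subunits, and so shorten the signal. In hippocampal neurons these proteins serve the receptors for glutamate, GABA, acetylcholine, monoamines, adenosine and neuropeptides.

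Values are array intensities on a linear scale and are given in the order 1, 2, 4 and 6 h. Low intensities were raised to a floor of 38.3, which 20% of all values lie under, and analysed as log2. Tests covered genes whose brightest probe set had a mean log2 intensity of at least 7.41, an intensity of 170.4, and 25 of the 40 members did. Intensities of different probe sets were not read as relative amounts of transcript, since each has its own hybridisation efficiency. They did decide which set stood for a gene and which genes passed the threshold. Marker sums add the intensities of different sets, so bright sets weigh most in them.

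Most of the 25 tested G protein subunits and RGS proteins differed little between the 4 samples, as did most tested genes. The median tested member spanned 1.37-fold between its highest and lowest hour, where the median of all 4951 tested genes spanned 1.47-fold. Of the 25 tested members 17 (68%) spanned less than 1.5-fold, against 53.5% of all tested genes. Over 2-fold there was 1 member (4%), Gnb3, against a background of 15% of all tested genes. That comparison depended on the brightest probe set standing for its gene: with the mean of all sets of a gene 6 of 25 members (24%) and 17.7% of all genes spanned over 2-fold. No tested member lay more than 2-fold above or below each of the other hours (0 of 25), a rule that 3.51% of all tested genes met.

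A straight line through the hours, fitted to log2 intensity with limma over all tested genes, called 0 of 25 members and 0% of the 4951 genes at an adjusted p under 0.05. At an unadjusted p under 0.05 the same limma fit gave 0 of 25 members and 2.02% of all genes, and the smallest unadjusted p of a member was 0.157. The p-values and SEs of this fit set the slope against a variance that limma drew only in part from the gene's own 4 arrays. Genes of like intensity weighed more in it (median prior degrees of freedom 10.4, against 2 residual ones). A gene whose 4 values lie near a line can thus have a wide SE. Hour and array cannot be told apart in the fit. Slopes ran from −0.10 log2 per h for Gna12 to 0.10 for Rgs5, with 15 above and 10 below 0. In 1 of 25 members, Rgs16, the values moved 1 way at every step, against 5.05% of all tested genes.

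**Figure D1:**
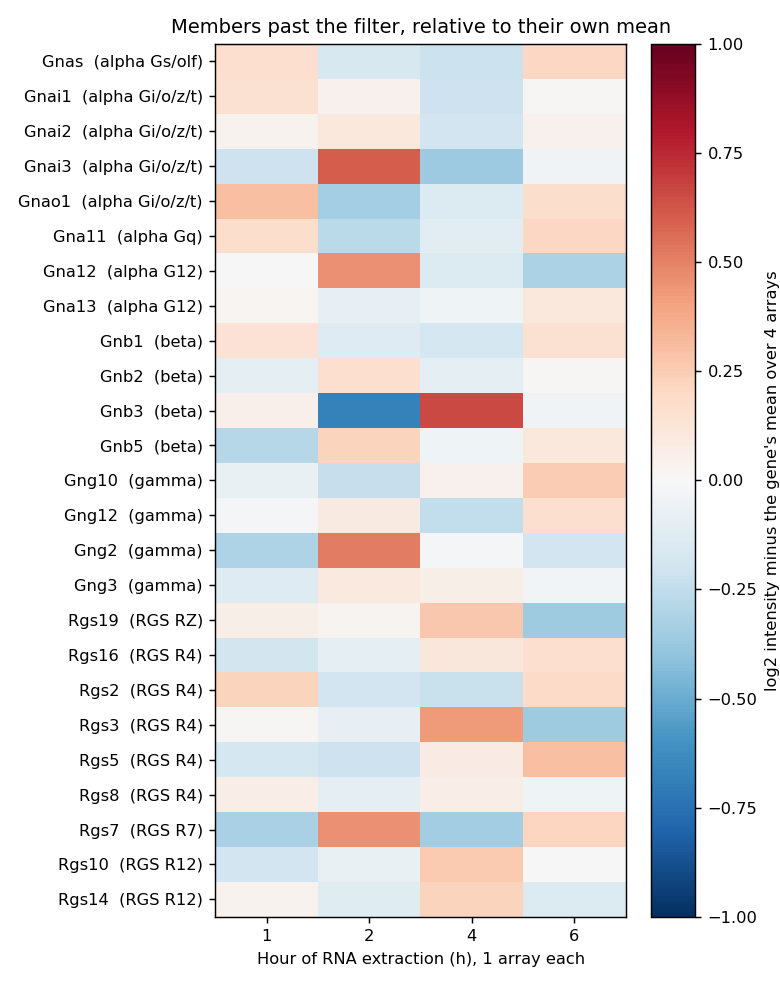
Colour shows the log2 intensity of each of the 25 tested members at each hour (columns, 1 array each) minus the member's own mean over the 4 arrays, with rows grouped by G protein class and RGS subfamily. Most cells are pale; Gnb3 has the widest row, low at 2 h and high at 4 h.

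Gnas encodes the alpha subunit of Gs, which stimulates adenylyl cyclase. It read 43509, 34583, 33227 and 44689, with a mean of 39002 ± 5931 (SD, n = 4). The 1 and 6 h samples were both above the 2 and 4 h samples, and the span was 1.34-fold. This probe set carries the suffix of sets that can detect several similar transcripts, and Gnas has several alternative first exons. The other Gnas probe sets were dim, with 181, 41.8, 155.6 and 77.3 for one and 30.3, 114, 33.1 and 22.8 for the other. Their order of hours differed from that of the bright set. Gnasas1 was under the floor except at 2 h (33.4, 51.8, 29.3 and 26).

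Of the Gi class, 4 of 7 genes were tested. Gnao1 encodes Go, an abundant alpha subunit of neurons that acts largely through the beta-gamma dimer it releases. It read 16779, 10724, 12334 and 15397 (13808 ± 2771, SD, n = 4), so 1 and 6 h were again above 2 and 4 h. A second Gnao1 probe set read 734, 668.5, 648 and 725 and shared that order over a span of 1.13-fold. Another, with the suffix for probes shared within a gene family, read 769, 482, 498.5 and 475 and was high at 1 h alone. The remaining Gnao1 sets were near the floor, at 87, 69.2, 37.7 and 102 and at 27, 13.6, 24.2 and 10.6.

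Gnai1, Gnai2 and Gnai3 encode the inhibitory subunits that pertussis toxin blocks. Gnai1 read 2279.9, 2111, 1783 and 2073, a span of 1.28-fold with the 4 h sample lowest. A dim Gnai1 set was lowest at the same hour (180.4, 188, 24.2 and 125), where it lay under the floor. Gnai3 read 1157, 2031, 1035 and 1299.6. Its 2 h sample was the high one and the span of 1.96-fold was the second widest of the tested members.

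The brightest Gnai2 probe set read 13928, 14629, 11918 and 14016, but its suffix marks probes shared within a gene family, so it may also detect relatives. The other Gnai2 sets read 4985, 3919, 4179.9 and 5236 for one and 1779.7, 1165, 1139 and 2127 for the other. In both, 1 and 6 h were above 2 and 4 h, which the family-wide set did not show, since its 2 h sample was the highest.

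Gnaz, a Gi-class subunit that pertussis toxin does not block, was not tested, with 293, 34, 178 and 62.6. Its 2 h value lay under the floor, so that the span was at least 7.64-fold. The transducin subunits Gnat1 and Gnat2, which signal in rod and cone photoreceptors, were near the floor. Gnat1 read 12.6, 51.8, 92.3 and 18.8, and Gnat2 read 26.3, 30.1, 47.5 and 90.8.

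In the Gq class, 1 of 4 genes was tested. Gna11 couples receptors to phospholipase C beta and read 1429.8, 1052, 1169 and 1458, with 1 and 6 h above 2 and 4 h and a span of 1.39-fold. A second Gna11 set read 325, 477, 191.5 and 817, a span of 4.27-fold. The sets shared the highest hour but had their lowest at different hours.

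Gnaq, the partner of Gna11 in most neurons, was measured by a single set just under the threshold and read 157, 46.8, 261 and 240.2. The 2 h sample was the low one, 5.58-fold under the 4 h sample. Gna15, a Gq subunit of blood cells, was under the floor except at 6 h (15, 24.8, 28.3 and 88.3), and Gna14 was under it in every sample (29.5, 10.4, 13.9 and 6.1).

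Both G12 genes were tested. Gna13 was the second steadiest of the members, with 599, 557, 573 and 637 and an SD of 0.08 in log2 units (n = 4). A dimmer Gna13 set read 213, 171, 192 and 141.5, lowest at the hour at which the bright set was highest. Gna12 read 850.1, 1164, 773 and 681, with the 2 h sample high, and had the steepest downward slope, −0.10 ± 0.07 log2 per h (SE, n = 4). A second Gna12 set, under the floor at 1 and 2 h, read 26.5, 26.2, 103 and 64.7.

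Of the G beta genes, 4 of 5 were tested. Gnb1 and Gnb2 encode the beta subunits most widely used with brain gamma subunits. Gnb1 read 4842, 4001, 3871 and 4868 (4395 ± 533, SD, n = 4), with 1 and 6 h above 2 and 4 h. Further Gnb1 sets read 1684, 997, 704 and 1724 and read 269, 167.5, 157 and 223. All 3 Gnb1 sets had 1 and 6 h above 2 and 4 h and their lowest value at 4 h, with spans of 1.26-fold, 2.45-fold and 1.71-fold. Gnb2 read 4326, 5174, 4332 and 4657, highest at 2 h, over 1.20-fold.

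Gnb5 forms an atypical dimer with RGS proteins of the R7 subfamily in place of a gamma subunit. It read 421.5, 597, 497 and 551.5, and its R7 partner Rgs7 read 813, 1397, 802 and 1186. Both were highest at 2 h and next highest at 6 h, as were Gnb2, Gnai2 and Gnai3. The lowest hour was 1 h for Gnb5 and 4 h for Rgs7. The share of all tested genes with that order was not counted. Gnb3, known from cone photoreceptors, read 233, 141, 355 and 219. Its 4 h sample was 2.51-fold above its 2 h sample. Without the 4 h sample no member spanned over 2-fold (0 of 25). Without the 2 h sample Gnb3 no longer did, and without the 1 or the 2 h sample Rgs11 passed the threshold on the mean and was counted as spanning over 2-fold. Gnb4 was under the floor except at 2 h (33.6, 65.1, 33.9 and 5.6).

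Of the G gamma genes, 4 of 7 were tested. Gng3, a gamma subunit of neurons, was the third steadiest member, with 5915, 6922, 6741 and 6357 (6484 ± 446, SD, n = 4). Gng2, a gamma subunit widely found in brain, read 238, 419.5, 293 and 259, highest at 2 h. In both Gng2 and Gng3 the 1 and 6 h samples were below the 2 and 4 h samples. That order was met by 2 of 25 members (8%) and by 20.4% of all tested genes, and with array median scaling neither Gng2 nor Gng3 had it.

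Gng10 read 1701, 1528, 1848 and 2136 and Gng12 read 1204, 1289.6, 1024 and 1363, each highest at 6 h. A second Gng12 set, mostly dim, was also highest at 6 h (65.3, 73.8, 47.4 and 238). Gng11, a farnesylated gamma subunit of vascular and other cells outside neurons, read 91.7, 28.6, 140.1 and 57.6, with its second set under the floor everywhere (8.1, 13.2, 15.1 and 14.6). Gng4 read 75.1, 37.7, 76.4 and 34.8. Gngt2 of cone transducin was under the floor in every sample (15, 7.1, 10.9 and 6.8). Gng5 was not a member because its probe set is annotated to the gene and a pseudogene; that set read 3069, 2846, 2979 and 3338.

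**Figure D2:**
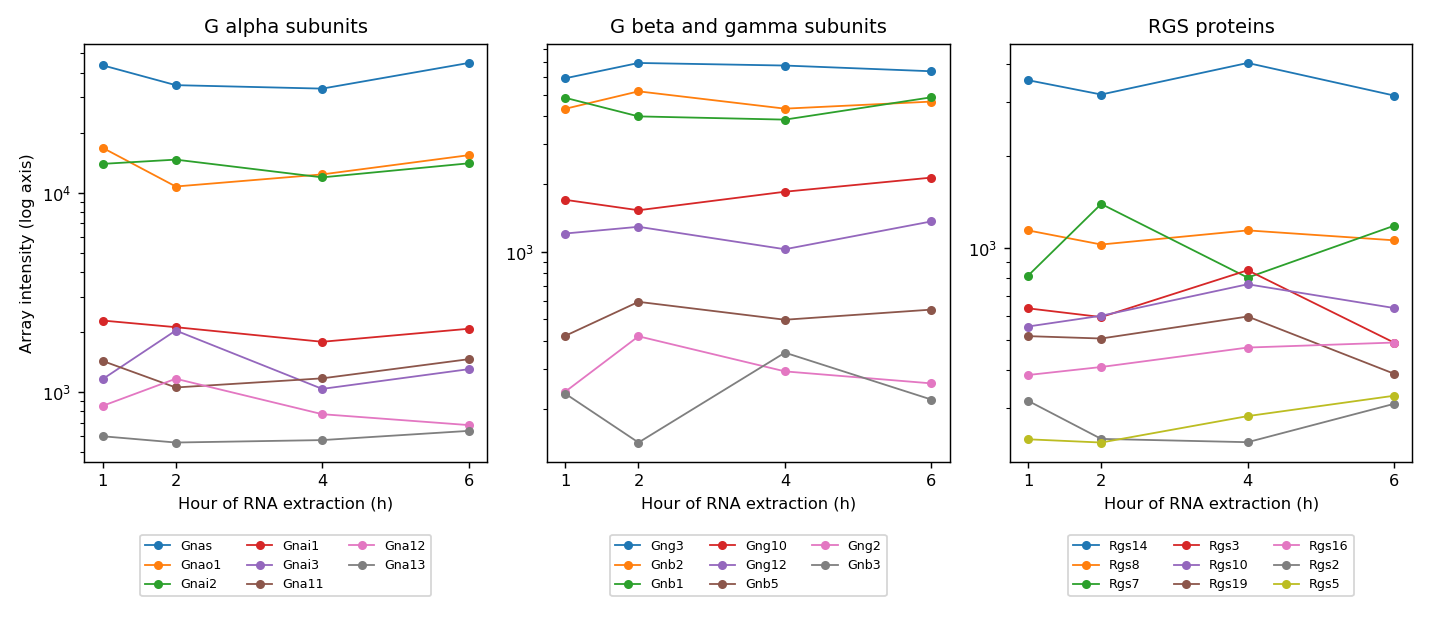
Array intensity on a log axis against the hour of extraction (h) for the tested G alpha genes (left), G beta and G gamma genes (middle) and Rgs genes (right), 1 point per array; lines join the points of a gene and stand for no fit. Gnas, Gnao1, Gna11, Gnb1 and Rgs2 dip at 2 and 4 h, while Gnai3, Gna12, Gng2 and Rgs7 peak at 2 h.

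Of the RGS genes, 9 of 13 were tested. The R4 subfamily consists of small proteins that act on Gi and Gq subunits. Rgs2, which favours Gq and is induced by neuronal activity, read 317, 238, 232 and 310.1, with the 1 and 6 h samples above the others. Rgs8, a neuronal R4 protein, was the steadiest tested member at 1145, 1029, 1145 and 1062, an SD of 0.08 in log2 units (n = 4), although its set carries the suffix for probes shared within a family. Rgs16 read 385, 409, 474 and 492, each value above the last and 1.28-fold in all, and its slope of 0.07 ± 0.08 log2 per h did not pass the test (SE, n = 4). A second Rgs16 set did not share that order (116, 24.4, 176 and 38.6).

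Rgs3 read 636.5, 596, 848 and 492, highest at 4 h and lowest at 6 h, a span of 1.72-fold. Rgs5 is a marker of pericytes, the mural cells of small vessels, and read 237, 232, 283 and 329.6, highest at 6 h. Its second set was under the floor except at 2 h (5.6, 80.5, 23.3 and 37.8). Of 10 other mural markers 9 had a probe and 3 were tested, and their summed intensity was 1352, 1772, 1408 and 1467, highest at 2 h. In these bulk samples fewer cells of a type and less RNA per cell cannot be told apart. Rgs4, an R4 protein of cortical and hippocampal neurons, was under the floor in every sample (7.7, 6.1, 6.9 and 8.1), with an SD of 0.887 on the intensity scale. This is a reading of that probe set at the bottom of the scale and sets no level for the gene.

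In the R7 subfamily, whose members pair with Gnb5, Rgs7 was the single tested gene of 4. Rgs11, known from retinal bipolar cells, lay just under the threshold, with a geometric mean of 159. It read 75.9, 98.1, 205 and 420.3, higher at each step, 5.54-fold in all. With no filter on dim genes its slope was 0.50 ± 0.083 log2 per h (SE, n = 4), which limma did not call, with an adjusted p of 1 over all 8251 genes. That unfiltered fit was separate from the one described above and drew its variance from all genes, dim ones included. It has its own SEs and prior degrees of freedom. The second Rgs11 set was under the floor in every sample (9.7, 12.7, 21.9 and 37.6). Rgs6 (43.3, 76.3, 57.9 and 28.5) and Rgs9, known for high expression in striatum (71.6, 14.8, 74.3 and 42.5), were dim, each with 1 sample under the floor.

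Rgs14, of the R12 subfamily, is concentrated in pyramidal neurons of hippocampal area CA2, where it restrains synaptic plasticity. It read 3547, 3184, 4038 and 3159 (3482 ± 411, SD, n = 4). The 4 h sample was the highest as deposited, but with array median scaling the 1 h sample was, at 3681 against 3656 at 4 h. CA field pyramidal markers, 7 of 14 with a probe, summed to 5152, 5433, 6125 and 5395 as deposited and to 5347, 5586, 5545 and 5624 with that scaling. Of the 5 tested, 2 were highest at 4 h and 3 at another hour. The list covers the CA fields together and does not measure CA2 on its own. The part of these markers in the value of Rgs14 was not tested. Rgs10, an R12 protein of neurons and microglia, read 555, 602, 763 and 638, highest at 4 h. A second Rgs10 set was lowest there, at 448, 436, 282 and 486, and the last was near the floor (21.6, 13.2, 40.3 and 20.6). Microglia markers, 10 of 11 with a probe and 7 tested, summed to 8019, 8572, 7742 and 8616.

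Rgs19, the single RZ gene with a probe set here, acts on Gi-class subunits. Its brightest set carries the suffix for less selective probe rules. It read 516, 507, 598 and 389, lowest at 6 h, on its brightest set and 479, 254, 292 and 386, lowest at 2 h, on the next. The last set was dim (25.3, 33.5, 41.2 and 15.5).

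Different probe sets of a gene often disagreed. Of the 15 members with more than 1 probe set, 7 had at least a pair past the threshold. The brightest hour was the same across such sets in 2 of these 7 genes (Gna11 and Gnao1), and the dimmest hour in 1 (Gnb1). Sets of Gnai2, Gnb1 and Rgs19 with a g suffix are among them, and sets of a gene may not be independent measures. In Rgs10 the brightest set was highest at 4 h and the next, a set with the suffix for probes shared within a family, was lowest there.

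**Figure D3:**
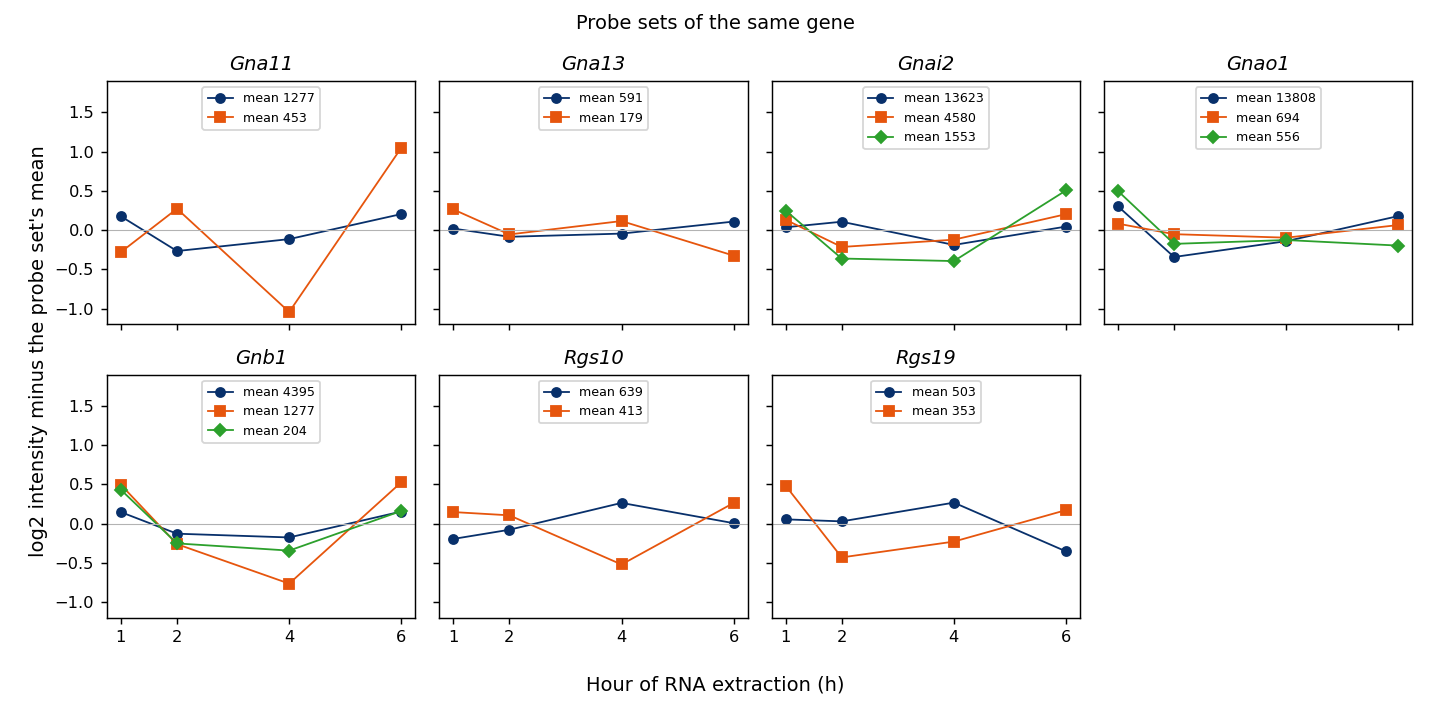
Log2 intensity minus the probe set's own mean against the hour of extraction (h), for the 7 members with several probe sets past the threshold; each line is a probe set, named by its mean intensity. The 3 sets of Gnb1 share their lowest hour, 4 h, but differ in their highest hour and in span. The Rgs10 pair parts at 4 h, where one set is highest and the other lowest.

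Several major subunits shared an order of hours, with both the 1 and the 6 h sample above both the 2 and the 4 h sample. This order, picked out after the values were seen and given without a test, held for 6 of 25 tested members (24%): Gnas, Gnao1, Gna11, Gna13, Gnb1 and Rgs2. It held for 19.3% of all tested genes, so the members' share was near the background. The mean of 1 and 6 h exceeded that of 2 and 4 h by 1.09-fold for Gna13 up to 1.40-fold for Gnao1. With each probe set taken on its own it held for 13 of 37 member sets (35.1%), where several sets come from the same gene, and for 18.7% of all sets. All 6 genes kept the order with array median scaling and with quantile normalization. With the mean of all probe sets of a gene Gnas, Gna11 and Gna13 lost it, Gnai2 gained it, and 4 members had it. Blood cell markers (6 of 7 with a probe, 1 tested) summed to 4597, 2620, 3057 and 3947, most of which was the alpha globin gene Hba-a1 at 4208, 2328, 2552 and 3814. Hba-a1 had this order and the 5 other blood cell markers with a probe did not; the part of blood in the members' order was not tested.

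Promoters of these genes are shown as the sequence context of named members; an order with a share near the background does not set them apart as a group. RefSeq promoters (assembly GRCm38.p6, 250 bases before to 50 after the start) were found for 30 of the 40 members, 40 promoters in all. Shown are 5 of the 6 genes with the order above, each with a single promoter entry, as many other members also have. Gnas, which has 4 entries, is left out. Sequences run 5′ to 3′ along the gene. GC boxes (GGGCGG, a motif bound by Sp1-type factors) and the core TGACG of the cAMP response element are in capitals on either strand, and overlapping matches run together.
Gnb1, chr4:155491111-155491410, plus strand: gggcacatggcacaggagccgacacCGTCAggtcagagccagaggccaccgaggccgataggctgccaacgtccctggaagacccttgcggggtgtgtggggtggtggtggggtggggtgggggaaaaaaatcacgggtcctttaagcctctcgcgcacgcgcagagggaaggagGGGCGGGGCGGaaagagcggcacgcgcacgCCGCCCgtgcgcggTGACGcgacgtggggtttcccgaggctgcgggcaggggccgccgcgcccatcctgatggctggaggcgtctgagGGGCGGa
Gna11, chr10:81545113-81545412, minus strand: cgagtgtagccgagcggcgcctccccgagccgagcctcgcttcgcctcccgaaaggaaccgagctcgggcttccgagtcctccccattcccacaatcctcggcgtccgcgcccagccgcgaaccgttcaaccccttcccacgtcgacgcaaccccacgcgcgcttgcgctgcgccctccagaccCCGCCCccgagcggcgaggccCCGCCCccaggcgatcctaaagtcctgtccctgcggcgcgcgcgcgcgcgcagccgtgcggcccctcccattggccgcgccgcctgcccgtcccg
Gna13, chr11:109362544-109362843, plus strand: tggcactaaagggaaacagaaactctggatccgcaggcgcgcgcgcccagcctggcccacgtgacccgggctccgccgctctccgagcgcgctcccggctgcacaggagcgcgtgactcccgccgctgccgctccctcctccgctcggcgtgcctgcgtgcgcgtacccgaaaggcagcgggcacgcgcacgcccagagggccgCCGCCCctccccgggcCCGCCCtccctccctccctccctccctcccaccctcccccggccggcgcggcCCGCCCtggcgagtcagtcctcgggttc
Gnao1, chr8:93810588-93810887, plus strand: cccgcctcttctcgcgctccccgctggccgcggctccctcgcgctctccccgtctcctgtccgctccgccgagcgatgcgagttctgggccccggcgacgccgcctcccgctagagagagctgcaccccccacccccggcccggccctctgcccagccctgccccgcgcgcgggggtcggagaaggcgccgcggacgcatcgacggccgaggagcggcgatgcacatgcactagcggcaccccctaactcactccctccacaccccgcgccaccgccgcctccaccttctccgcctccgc
Rgs2, chr1:144004100-144004399, minus strand: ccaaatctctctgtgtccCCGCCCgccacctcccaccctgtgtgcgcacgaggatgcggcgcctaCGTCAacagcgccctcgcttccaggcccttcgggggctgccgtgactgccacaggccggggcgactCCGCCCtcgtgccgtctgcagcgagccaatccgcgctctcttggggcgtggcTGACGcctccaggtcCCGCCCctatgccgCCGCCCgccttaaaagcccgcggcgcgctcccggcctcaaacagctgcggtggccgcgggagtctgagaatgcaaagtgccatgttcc
Gnb1 and Rgs2 each held 4 GC boxes and 2 TGACG cores, Gna11 held 2 GC boxes, Gna13 held 3, and Gnao1 held neither motif. GC boxes were found in 47.5% of the members' promoters and 35.7% of all 32851 promoters, and TGACG in 25% and 20.8%. The full cAMP response element TGACGTCA was in 0 of 40 member promoters and in 1.79% of all, and TATAAA in 20% and 13.6%. These shares count promoter entries, so genes with several entries weigh more. Gnas is one, with both TATAAA and TGACG among its 4 entries, some of which overlap. A match describes the letters in this window and no more.

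The members' median spread between samples was near that of all tested genes in the brighter part and lower in the dimmer part. The difference was not tested. The median SD of log2 intensity over the 4 samples was 0.22 for the 25 members and 0.25 for all tested genes. Among the brighter genes, those above the median level of all tested genes, it was 0.19 for 17 members and 0.20 for 2476 genes. Among the dimmer genes it was 0.24 for 8 members and 0.31 for 2475 genes. The steadiest members after Rgs8, Gna13 and Gng3 were Gnb2, Gnai2, Gnai1, Rgs14 and Rgs16, with SDs from 0.12 to 0.17.

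**Figure D4:**
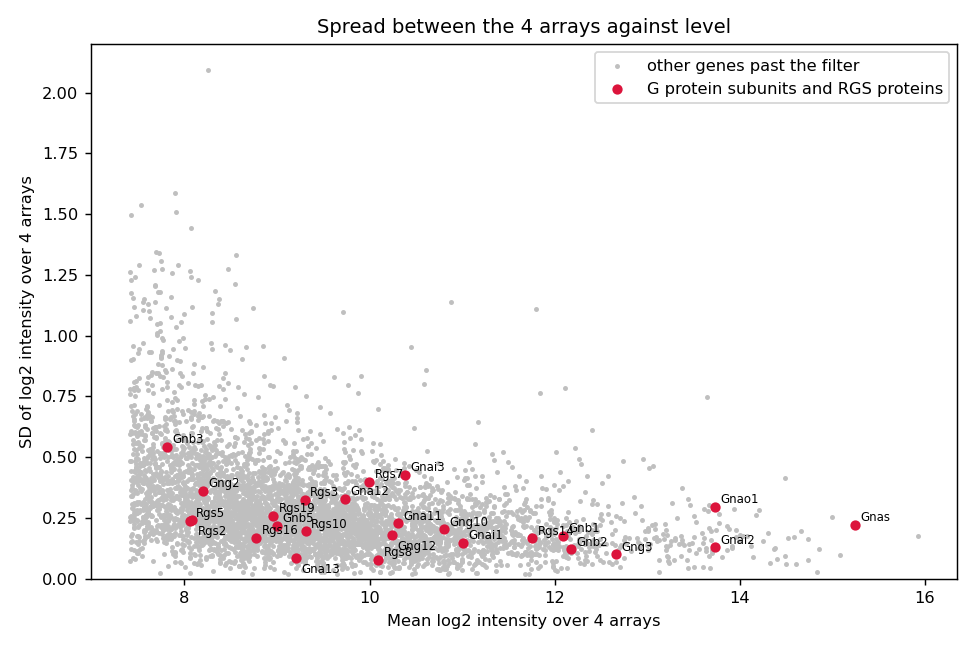
SD of log2 intensity over the 4 arrays against mean log2 intensity, for the 25 tested members (red, named) and the other tested genes (grey). The members lie within the cloud, from 0.08 for Rgs8 to 0.54 for Gnb3, and the brightest, Gnas, stands at 0.22.

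Facts of the whole set of arrays bear on these values. The trimmed means were 500.3 on all 4 arrays. At 2 h the median member was 0.11 log2 under its mean at the other hours, and at 6 h it was 0.06 above, where the median of all tested genes was 0.01 above at both. Scaling the arrays to their medians would move all genes at 4 h to −0.17 log2 against the other hours, from 0.02 as deposited. Granule cell markers were present: 10 of 12 had a probe and 8 were tested, among them Calb1 (2542, 3026, 2506 and 2453) and the granule cell factor Prox1 (184, 153.5, 182 and 249). Choroid plexus markers (5 of 9 with a probe, 2 tested) summed to 2150, 4860, 5747 and 3029. Of the 2 tested, Ttr read 81.3, 234, 2408 and 191, a span of 29.6-fold, and Igf2 read 1849, 4402, 2955 and 2521. Markers of striatum, habenula and thalamus (5 of 7 with a probe, 4 tested) summed to 1840, 1650, 2216 and 1574. The part of such tissue in the members' values was not tested.

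Other genes of G protein pathways were listed by role, and their difference from the members was not tested. Of 95 listed effectors, receptor kinases, arrestins, further regulators and receptors, 58 had a probe and 29 were tested. Of these 29, 9 (31%) spanned over 2-fold, against the 15% of all tested genes. The limma trend called 0 of 29 in either direction. The share over 2-fold depends on brightness: it was 32.1% of all genes with no filter and 6.39% with the filter at the 60th percentile. The 29 genes were not matched to others on brightness. Several of the sets named here carry suffixes for shared or less selective probes (Kcnj9, Pcp2, Arrb1 and Npy2r). The widest of the 7 tested effectors were Kcnj9, a potassium channel subunit opened by beta-gamma (217, 186.5, 230.3 and 627), and the adenylyl cyclase Adcy8 (186, 404, 271 and 236.5). Among 7 tested regulators the widest were Pcp2, which binds Gi and Go alpha subunits, at 297, 224.5, 243 and 741, and the receptor sorting protein Gprasp1 at 412, 593, 742 and 584. Of the 2 tested genes for receptor kinases and arrestins, neither spanned over 2-fold: Grk6 read 1052, 915, 789 and 1058 and Arrb1 read 674, 538, 633 and 632.

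Among 13 tested receptors, 6 spanned over 2-fold. The serotonin receptor Htr7, which couples to Gs, was widest at 269, 312, 59.4 and 360.1, low at 4 h. The muscarinic receptor Chrm1, which couples to Gq, came next at 147, 134, 354 and 188.5, high at 4 h. The bright receptors Gabbr1 of GABA-B (3266, 3168, 3890.3 and 3305) and Npy2r of neuropeptide Y (3107, 2606, 2961 and 2907) spanned 1.23-fold and 1.19-fold.

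**Figure D5:**
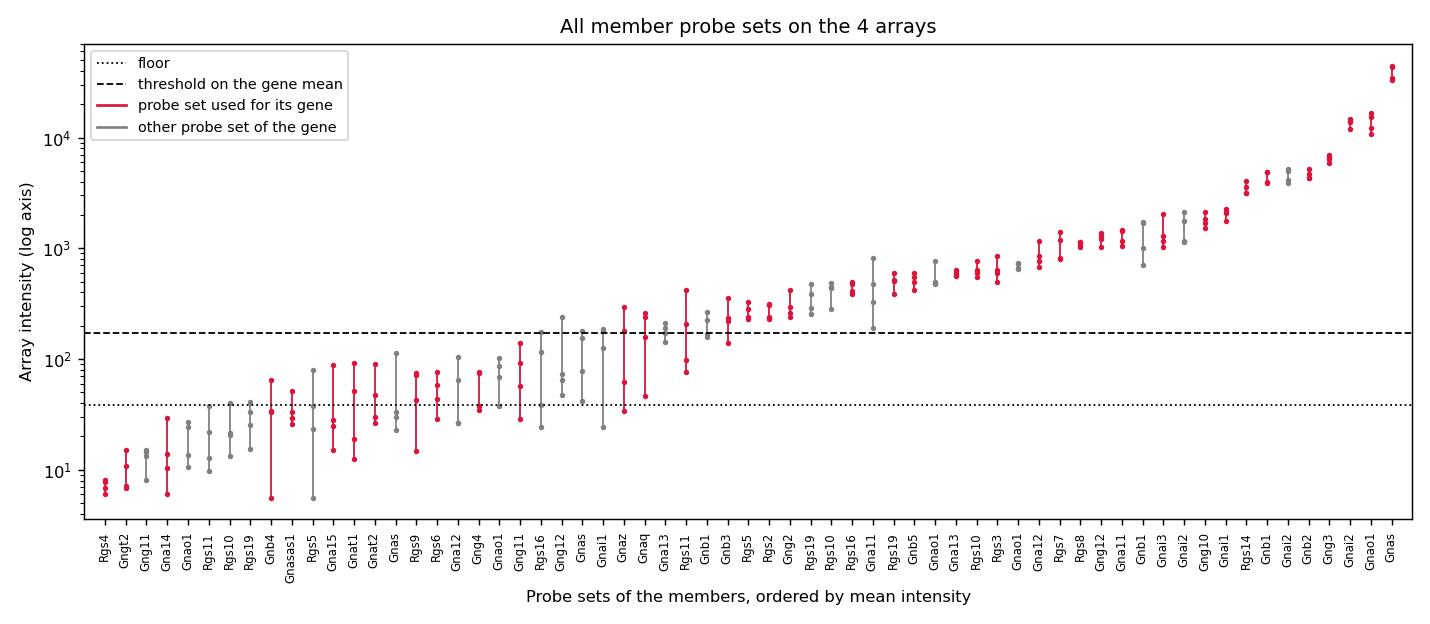
Array intensity on a log axis of all 63 member probe sets (x axis, ordered by mean), with 4 points per set and a bar from the lowest to the highest; red marks the set used for its gene, the dotted line the floor of 38.3 and the dashed line the threshold of 170.4. Spans widen towards the floor, and Rgs4, Gngt2 and Gna14 lie wholly below it.

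With no filter on dim genes, 8 of 40 members (20%) spanned over 2-fold, as did 32.1% of all 8251 genes. Beside Gnb3 these were Gna15, Gnaq, Gnat1, Gnat2, Gnaz, Gng11 and Rgs11, all with means under the threshold. Brighter sets that did not stand for their gene also spanned over 2-fold, as given above for Gna11 and Gnb1. Of the 63 member probe sets, 6 were under the floor on every array.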

How the data were processed

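Gene expression was measured on oligonucleotide arrays in 4 handled control samples. The deposited values are linear intensities, 1 for each array and probe set; what the authors did to make it is not given in the sources used here. Trimmed means (2% off each end) were equal, so the intensities were used as deposited. Of 12488 probe sets, 66 controls, 1193 without a symbol and 396 with several were left out. The annotation was GEO's platform table, updated by gene identifier to RefSeq symbols, except that the members kept the symbols of the platform table.

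A floor at the 20th percentile (38.3) preceded the log2 step. The brightest probe set stood for its gene, and genes with a mean at or above the 40th percentile (4951) were tested. The slope on the hour came from limma 3.58.1 under R 4.3.3 (lmFit, eBayes with intensity trend, 2 residual degrees of freedom), two-sided, adjusted after Benjamini-Hochberg and called at 0.05. The fit was tested on simulated data with the same SD for every gene and planted slopes steeper than those of the tested members. It does not show whether slopes of the members' size would be called. Spans and orders of hours carry no test. The number of arrays limits the precision.

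Members, lists and tests were chosen with earlier results of these data known. Given in full were members over 2-fold, the 8 steadiest, those with several probe sets and those moving at every step. The 2 widest tested genes of each pathway list were also given. Other genes were named after their values were seen. Alternatives changed the floor, filter, scaling, probe set rule, prior and samples.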

Additional observations from a re-analysis of the deposited data

How the results depend on the processing

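The trend called 0 members under all 13 alternatives, and 0 genes in all except when a sample was left out: between 0 and 13 genes were then called, 13 without the 1 h sample and 9 without the 6 h sample, each from 3 arrays. The count of members spanning over 2-fold was 1 as reported, 8 with no filter on dim genes, 0 with a filter at the 60th percentile, 2 with array median scaling (Gnai3 and Gnb3), 6 with the mean of all probe sets of a gene, 5 with each probe set on its own, and from 0 (without the 4 h sample) to 2 (without the 1 h sample). Over these settings the share of all genes was above that of the members except with the mean of all probe sets, where it was 24% of members and 17.7% of all genes. Members over 2-fold apart from each other hour numbered 0 as reported, 3 with no filter, 1 with the mean of all probe sets, 2 with each probe set on its own, and 0 to 1 with a sample left out. The order with 1 and 6 h above 2 and 4 h, whose alternatives were chosen after seeing the data, held for 4 to 8 genes, and for 13 probe sets taken on their own. The median SD of the members stayed between 0.18 and 0.24. Of 270 recomputed spans of single members, 33 moved by the SD over the samples or more, in 19 of the 25 genes, all under median scaling, the mean of probe sets or a sample left out; the floors and filters leave bright genes as they are by construction. Array median scaling changed the highest hour of 1 tested member (Rgs14) and the lowest hour of 7. Causes were not tested, apart from the added or removed dim genes that the filters themselves set. Dim probe sets limit what can be read: 15 of 40 members lay under the threshold.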
